A study of Mus musculus with 24 samples.

Results

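The genes described here are 7 markers of neurons that release GABA (gamma-aminobutyric acid), the main inhibitory transmitter of the cortex: Gad1, Gad2, Slc32a1, Pvalb, Calb1, Calb2 and Lhx6. They were chosen by symbol, and all 7 of them were among the 14014 genes listed in each of the 4 deposited tables. The tissue was cortex of male mice aged 3 to 4 months, strain C57BL/6N-Cdr1asem1Nikr, all of which underwent a filament occlusion of the middle cerebral artery for 1 h followed by 1 day of reperfusion, a model of ischemic stroke. The genotypes were wild type (WT) and knockout (KO) for ciRS-7, the circular RNA Cdr1as, which binds the microRNA miR-7. Each of 12 animals gave 1 cortex sample marked CL and 1 marked PI, which makes 24 libraries in 4 groups of 6. These marks are not spelled out in the labels and are kept here as they stand. No samples without surgery were analysed here, so each difference is one between samples of operated animals.

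GABA is made from glutamate by glutamate decarboxylase, which exists as 2 enzymes encoded by Gad1 and Gad2. The Gad1 product supplies GABA throughout the cell, and the Gad2 product is concentrated at nerve terminals, where Slc32a1, the vesicular GABA transporter, loads the transmitter into vesicles. Parvalbumin (Pvalb), calbindin (Calb1) and calretinin (Calb2) are calcium-binding proteins that mark classes of inhibitory interneuron. In mouse cortex calbindin is also made by many excitatory neurons of the upper layers, so Calb1 is the least specific of the 7. Lhx6 is a transcription factor kept by interneurons that arise in the medial ganglionic eminence, among them the parvalbumin and somatostatin classes.

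Expression is given as log2 CPM, the base-2 logarithm of reads scaled to a common library total (CPM), and every table holds 2 groups that were scaled together. In the deposited values the extremes of each group had been replaced by its quartiles, so that the 2 lowest and the 2 highest of 6 values were tied in 100% of genes. The lowest and highest values given below are those drawn-in values, and the true extremes lie further out. Group levels are trimmed means of the 4 values that can be solved, ± the SE of that mean (n = 6 libraries), and called genes are those with an adjusted p under 0.05 over the whole table. Depth, read from the steps between low values, was 5.27 to 10.5 M reads per library (megareads). It is the total used to scale a library, which can differ from the number of reads sequenced. CL KO replicate 6 lay at a tied end of its group in up to 89.5% of genes, and PI WT replicate 4 in up to 80.7%, against at most 74.9% in any other library. Of the 7 genes described here, 7 in CL KO replicate 6 and 5 in PI WT replicate 4 were at a tied end. As a check of the genotype, Cdr1as was at most 0.166 CPM in the KO libraries and at least 2610 CPM in WT, on the drawn-in values.

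The 7 genes differed widely in abundance. In CL WT, per kilobase of merged annotated exons, Gad2 stood at 35.0 CPM, Gad1 at 32.7, Pvalb at 30.9 and Calb1 at 30.4, followed by Slc32a1 at 8.17, Calb2 at 2.34 and Lhx6 at 1.73. Neighbours among these first 4 genes overlapped in their drawn-in ranges, although Gad2 (33.3 to 36.8) lay above Calb1 (29.2 to 31.8). Slc32a1 lay below all of them and above the scarcest pair, and Calb2 (2.23 to 2.44) lay above Lhx6 (1.56 to 1.94). In PI WT the order was Gad2 at 42.6, Gad1 at 35.3, Pvalb at 24.2, Calb1 at 18.5, Slc32a1 at 8.04, Calb2 at 1.92 and Lhx6 at 1.83, and all neighbours except the last pair were apart in their ranges. In CL KO the levels were 34.8 for Pvalb, 34.7 for Gad2, 33.9 for Gad1, 32.0 for Calb1, 7.67 for Slc32a1, 2.06 for Calb2 and 1.66 for Lhx6, where the first 4 genes overlapped from one to the next. In PI KO they were 45.3 for Gad2, 32.9 for Gad1, 25.9 for Pvalb, 21.9 for Calb1, 8.0 for Slc32a1, 1.75 for Lhx6 and 1.64 for Calb2, with overlap only within the last pair. Exon lengths cover all annotated transcripts, retained introns among them, which lowers the value of genes with many forms. Counting error followed abundance. Gad1 was covered by 1280 to 2630 reads per library and Gad2 by 1220 to 2520, while Lhx6 had 41 to 83 reads and Calb2 had 15 to 38.

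**Figure D1:**
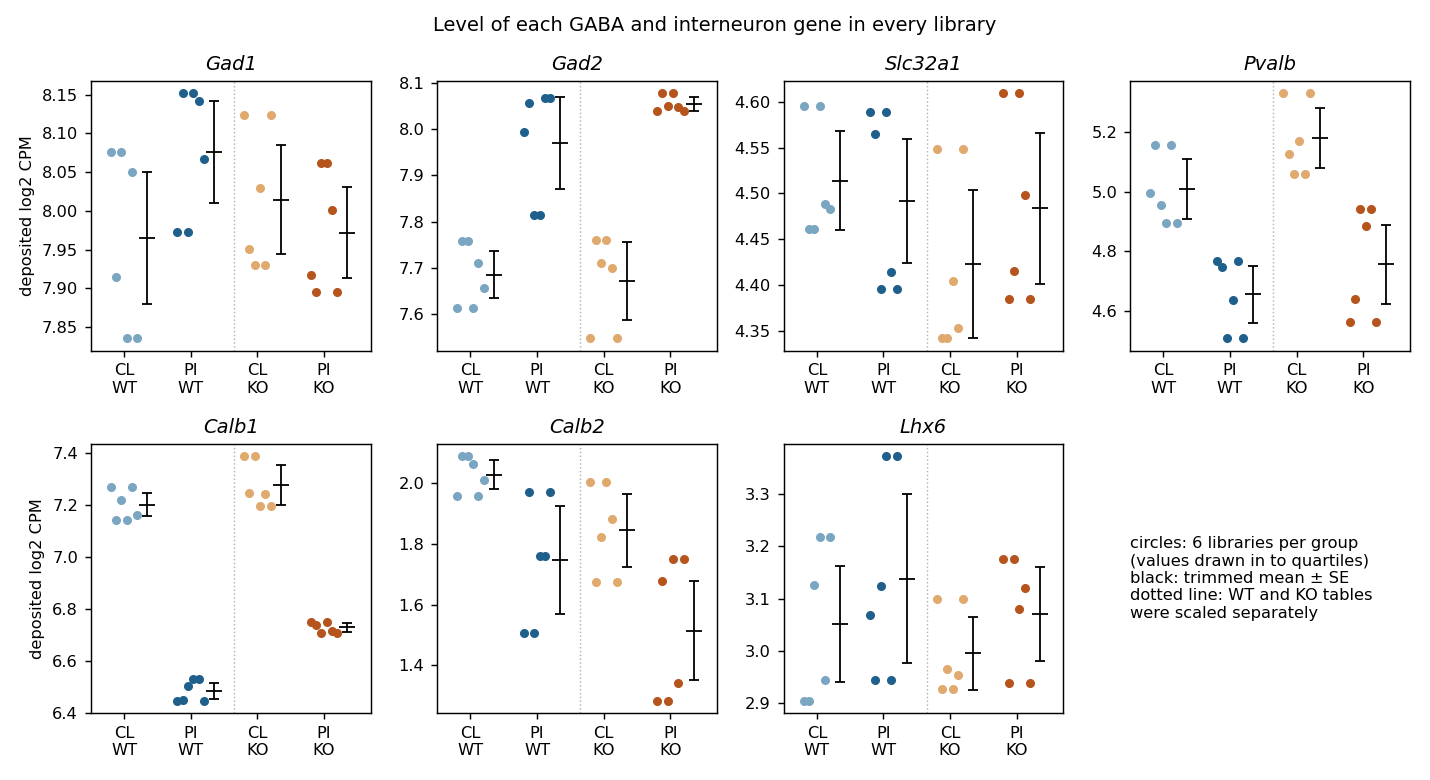
Deposited log2 CPM of each gene (y axis, with a separate range for each panel) in the 4 groups (x axis), with 1 circle per library and the trimmed mean ± SE in black. On these drawn-in values, all PI libraries lie below all CL libraries of their genotype in Calb1 and above them in Gad2. In Gad1, Slc32a1 and Lhx6 the groups overlap.

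Comparing PI to CL inside each genotype asked how these genes differed between the cortex samples of the same animals. Calb1 was lower in PI in both genotypes, Gad2 was higher in PI, and was called in KO, while Gad1, Slc32a1 and Lhx6 were not called in either genotype. Pvalb was lower in PI by about as much in both genotypes without passing the test over all genes. In WT 1 of the 7 genes was called, lower, where 10.6% of all 14489 genes were called, 5.20% higher and 5.40% lower. In KO 2 of 7 were called, 1 in each direction, where 10.0% of 14338 genes were called, 5.11% higher and 4.94% lower. An unadjusted p under 0.05 was found for 3 of 7 genes in each genotype, against 23.9% of all genes in WT and 24.9% in KO. With 7 genes these counts are not set apart from the background. In tissue samples of this kind, fewer cells of a type and less RNA per cell cannot be told apart.

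**Figure D2:**
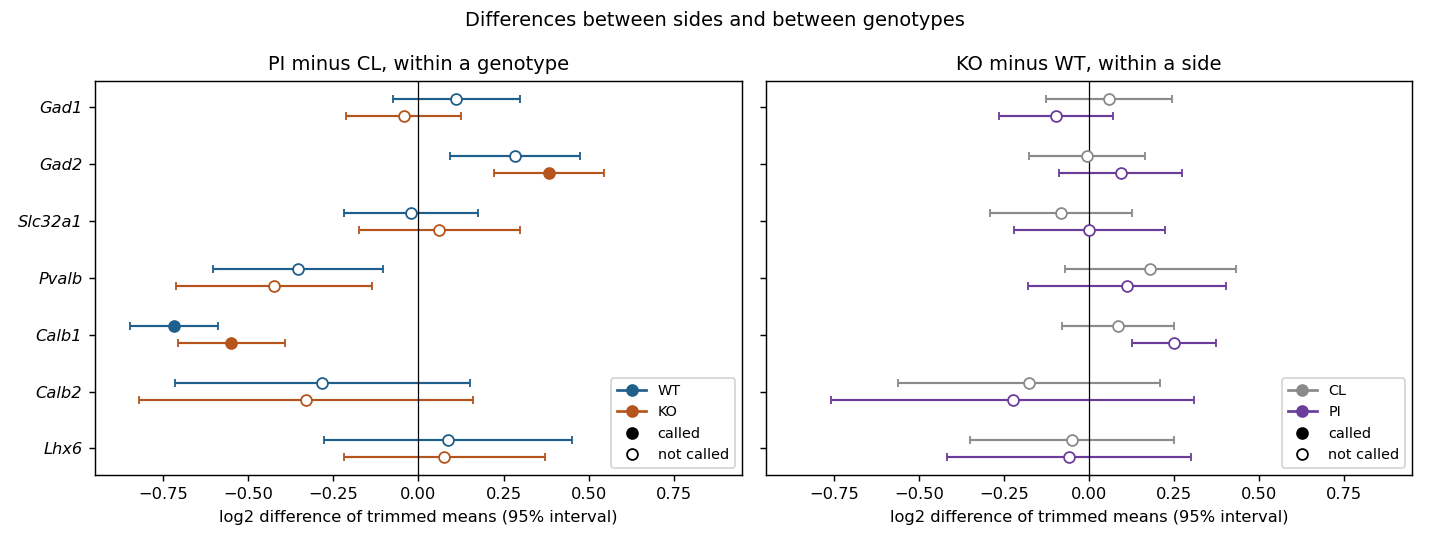
Log2 difference of trimmed means (x axis) with 95% interval for each gene (y axis), PI minus CL within WT and within KO on the left and KO minus WT within CL and within PI on the right; filled circles were called and open circles were not. Calb1 lies left of 0 in both genotypes on the left side, and no gene was called on the right.

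Gad2 (ENSMUSG00000026787, chromosome 2, 22622205 to 22693874 on the plus strand of GRCm38) had a lowest, median and highest value of 7.61, 7.68 and 7.76 log2 CPM in CL WT. In PI WT these were 7.81, 8.03 and 8.07, so the groups did not overlap. Gad2 was higher in PI WT by 0.28 on the log2 scale (SE 0.09, 95% interval 0.09 to 0.47, adjusted p = 0.06), or 21.7%, which missed the threshold. In CL KO it ran from 7.55 through 7.71 to 7.76, and in PI KO from 8.04 through 8.05 to 8.08, the narrowest spread of any group for this gene. There it rose by 0.38 (SE 0.07, 95% interval 0.22 to 0.54, adjusted p = 0.00652), or 30.5%. As the drawn-in groups did not overlap, the drawn-in PI value was necessarily the higher one in 6 of 6 animals of each genotype. That count adds no further evidence. The true order can differ where a library was at a tied end, as in WT replicate 3, tied low in PI and high in CL. With no trend in the prior variance the call in KO was lost (adjusted p = 0.0505). With the animal as a block, in limma on the drawn-in values, the difference in WT passed too (adjusted p = 0.000514), but drawn-in values understate the spread.

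Gad1 (ENSMUSG00000070880, chromosome 2, 70553072 to 70602014, plus strand) gave the other enzyme's transcript at a like level. It ran from 7.84 through 7.98 to 8.08 log2 CPM in CL WT and from 7.97 through 8.10 to 8.15 in PI WT, with overlap. The difference was 0.11 (SE 0.09, 95% interval -0.07 to 0.30, adjusted p = 0.483), and the drawn-in PI value was higher in 4 of 6 animals. In KO it ran from 7.93 through 7.99 to 8.12 in CL and from 7.90 through 7.96 to 8.06 in PI, a difference of -0.04 (SE 0.08, 95% interval -0.21 to 0.13, adjusted p = 0.791). An antisense gene, Gad1os, overlaps Gad1 on the other strand, and whether reads were counted by strand is not given in the sources used here.

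Taking Gad2 relative to Gad1 within each library takes out the scaling of the library. The extremes of each gene were drawn in separately, however. In a library at a tied end of either gene, the difference is therefore not its true one, and the ranges and overlaps below hold for drawn-in values only. The log2 CPM of Gad2 minus that of Gad1 ran from -0.46 through a median of -0.27 to -0.16 in CL WT and from -0.34 through -0.09 to 0.02 in PI WT, with overlap between the groups. In CL KO it ran from -0.58 through -0.25 to -0.19 and in PI KO from -0.01 through 0.08 to 0.18, with no overlap. This comparison was added after the values had been seen and has no test. As a ratio of CPM at the medians, Gad2 to Gad1 went from 0.829 to 0.942 in WT and from 0.841 to 1.06 in KO.

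**Figure D3:**
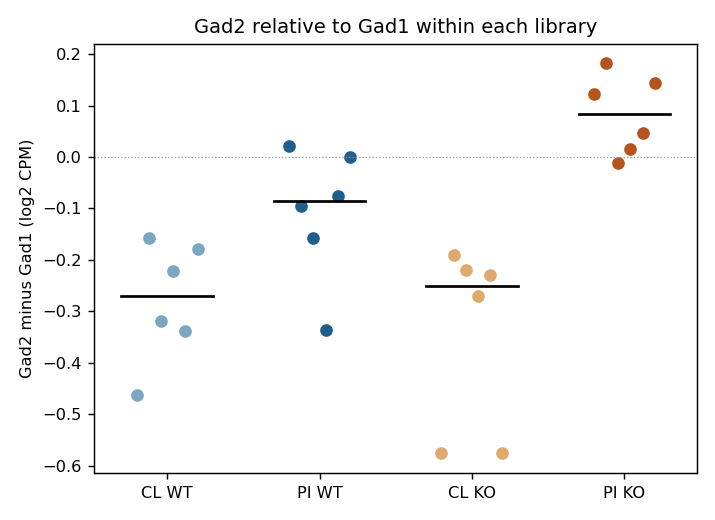
Log2 CPM of Gad2 minus log2 CPM of Gad1 (y axis) in each library of the 4 groups (x axis), with the median as a bar. On the drawn-in values the PI KO libraries lie between -0.01 and 0.18, all above the CL KO libraries, while the PI WT and CL WT libraries overlap.

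The start regions of the 2 decarboxylase genes are shown side by side, from RefSeq on GRCm38.p6. Gad2 was called in KO only and Gad1 in neither genotype, and a difference between their changes was not tested. Each covers 250 bases before and 50 bases after the start site on the plus strand, chr2:22622077-22622376 for Gad2 and chr2:70561879-70562178 for Gad1. The Gad2 region spans the start of the annotated gene at 22622205. The Gad1 region lies inside its annotated gene, which begins at 70553072, and the sequence around that earlier start is not shown. Capitals mark matches on either strand to the GC box GGGCGG or to TGACG, the core of the cAMP response element, and no marked matches overlap.
Gad2: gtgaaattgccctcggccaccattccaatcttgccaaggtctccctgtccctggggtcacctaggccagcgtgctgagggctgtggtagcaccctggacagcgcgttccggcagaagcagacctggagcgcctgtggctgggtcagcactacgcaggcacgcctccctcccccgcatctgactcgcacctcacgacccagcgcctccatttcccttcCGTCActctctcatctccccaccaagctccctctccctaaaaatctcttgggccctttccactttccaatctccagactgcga
Gad1: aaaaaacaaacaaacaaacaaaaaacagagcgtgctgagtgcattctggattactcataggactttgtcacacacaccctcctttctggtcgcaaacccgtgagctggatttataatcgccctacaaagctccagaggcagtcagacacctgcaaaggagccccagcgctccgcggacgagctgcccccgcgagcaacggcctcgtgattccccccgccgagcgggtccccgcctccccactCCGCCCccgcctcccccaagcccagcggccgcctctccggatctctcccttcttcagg
Gad2 held 1 match to TGACG and 0 to GGGCGG, and Gad1 held 1 match to GGGCGG and 0 to TGACG. Of 32851 start regions of this length, 20.8% held TGACG and 35.7% held GGGCGG. The TATA box letters TATAAA, searched on either strand and present in 13.6% of regions, had 1 match in Gad1 and 0 in Gad2. The Gad1 match, at -141 from the start site, reads TTTATA as printed and so lies on the other strand. Neither region holds TATAAA on the strand of its gene. The full element TGACGTCA, present in 1.79%, was in neither. Both regions were rich in G and C, at 61.3% for Gad2 and 60.0% for Gad1 against a median of 52.7% over all regions. Matches of letters are descriptions and were not measured as bound sites.

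Slc32a1 (ENSMUSG00000037771, chromosome 2, 158610767 to 158615748, plus strand), which loads GABA into vesicles, ran from 4.46 through 4.49 to 4.60 log2 CPM in CL WT and from 4.40 through 4.49 to 4.59 in PI WT. The groups overlapped nearly whole, with a difference of -0.02 (SE 0.09, 95% interval -0.22 to 0.17, adjusted p = 0.918). In KO it ran from 4.34 through 4.38 to 4.55 in CL and from 4.38 through 4.46 to 4.61 in PI, a difference of 0.06 (SE 0.11, 95% interval -0.18 to 0.30, adjusted p = 0.788). An increase as large as that of Gad2 in KO, 0.38, lay outside both intervals. An antisense gene, Gm14205, overlaps Slc32a1 on the other strand.

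Lhx6 (ENSMUSG00000026890, chromosome 2, 36081953 to 36105408, minus strand) was called in neither genotype. Its level was 3.05 ± 0.11 log2 CPM in CL WT (SE, 6 libraries) and 3.14 ± 0.16 in PI WT, and at 3.00 ± 0.07 in CL KO and 3.07 ± 0.09 in PI KO. The differences were 0.09 (SE 0.17, adjusted p = 0.814) in WT and 0.08 (SE 0.14, adjusted p = 0.787) in KO. With intervals of -0.28 to 0.45 in WT and -0.22 to 0.37 in KO, a change within those bounds was not detectable at 41 to 83 reads per library.

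Among the calcium-binding proteins, Calb1 (ENSMUSG00000028222, chromosome 4, 15881264 to 15908064, plus strand) showed the smallest p of the 7 genes. It ran from 7.14 through 7.19 to 7.27 log2 CPM in CL WT and from 6.44 through 6.48 to 6.53 in PI WT. Every drawn-in PI value was thus lower than every drawn-in CL value. The fall was 39.2% (log2 difference -0.72, SE 0.06, 95% interval -0.85 to -0.59, adjusted p = 2.12e-05), with rank 19 by p among all genes. In KO, Calb1 ran from 7.20 through 7.25 to 7.39 in CL and from 6.71 through 6.73 to 6.75 in PI. The groups were again apart, and it fell by 31.7% (log2 difference -0.55, SE 0.07, 95% interval -0.71 to -0.39, adjusted p = 0.000625). With the drawn-in groups apart, the drawn-in PI value was necessarily the lower one in 6 of 6 animals of each genotype. The true values at tied ends are not known. Relative to the median marker shared by neurons, Calb1 was still lower in PI, by -0.54 in WT (adjusted p = 0.000103) and -0.37 in KO (adjusted p = 0.00365).

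Pvalb (ENSMUSG00000005716, chromosome 15, 78191114 to 78206400, minus strand) marks fast-spiking interneurons. It ran from 4.89 through 4.97 to 5.16 log2 CPM in CL WT and from 4.51 through 4.69 to 4.77 in PI WT, without overlap. The difference of -0.35 (SE 0.11, 95% interval -0.60 to -0.10, adjusted p = 0.0705) missed the threshold, as did that in KO, -0.42 (SE 0.13, 95% interval -0.71 to -0.14, adjusted p = 0.0631). In KO the values ran from 5.06 through 5.15 to 5.33 in CL and from 4.56 through 4.76 to 4.94 in PI, again without overlap. Without overlap, the drawn-in PI value was necessarily lower in 6 of 6 animals of each genotype. The true order can differ at tied ends, as in KO replicate 3, tied high in PI and low in CL. Pvalb passed under centring of the groups on their median gene (adjusted p = 0.0465 in WT and adjusted p = 0.0435 in KO). It also passed with the animal as a block in limma on the drawn-in values, which understate the spread (adjusted p = 6.2e-05 in WT and adjusted p = 0.00447 in KO). Relative to the median marker shared by neurons the differences were -0.18 (adjusted p = 0.255) and -0.25 (adjusted p = 0.19).

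Calb2 (ENSMUSG00000003657, chromosome 8, 110137502 to 110168210, minus strand) encodes calretinin, a relative of calbindin, and had the fewest reads. Its level was 2.03 ± 0.05 log2 CPM in CL WT (SE, 6 libraries) and 1.75 ± 0.18 in PI WT, and at 1.84 ± 0.12 in CL KO and 1.51 ± 0.16 in PI KO. The differences, -0.28 (SE 0.20, adjusted p = 0.441) in WT and -0.33 (SE 0.23, adjusted p = 0.408) in KO, were within their error, with intervals from -0.71 to 0.15 and from -0.82 to 0.16. With the animal as a block, on drawn-in values, which understate the spread, limma called it in WT (adjusted p = 0.0307) and not in KO (adjusted p = 0.0536). At 15 to 38 reads per library the precision is low.

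The deposited values of PI and CL did not overlap in 3 of the 7 genes in WT and in 3 in KO, each time Gad2, Pvalb and Calb1, where 32.8% and 34.3% of all genes did not. Of these, Pvalb and Calb1 lay wholly lower in PI, as did 16.3% of all genes in WT and 17.2% in KO. The level summed over the 7 genes was alike on both sides, 623 to 703 CPM in PI WT and 633 to 701 in CL WT, and 661 to 711 in PI KO and 669 to 710 in CL KO. Opposite changes offset each other in this sum. From CL to PI, Calb1 went from 147 to 89.5 CPM in WT and from 155 to 106 in KO. Gad2 went from 206 to 251 CPM in WT and from 204 to 266 in KO. Sums over 14 markers shared by neurons did not overlap, at 8920 to 9770 CPM in PI WT and 10300 to 10800 in CL WT, and 8670 to 9490 in PI KO and 10200 to 10500 in CL KO. Those over 13 markers of excitatory cortical neurons were 2070 to 2210 in PI WT and 2570 to 2780 in CL WT, and 2040 to 2160 in PI KO and 2640 to 2800 in CL KO. The part of these shifts in the differences of the 7 genes was not tested. Relative to the median of the shared neuronal markers, which was -0.18 in both genotypes, Gad2 was higher in PI by 0.46 in WT (adjusted p = 0.00314) and 0.56 in KO (adjusted p = 0.000375), and Gad1 by 0.29 in WT (adjusted p = 0.0263) and 0.14 in KO (adjusted p = 0.215). That reference was taken as known, so its own error is not in these p-values.

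The genotype comparison asked whether the loss of ciRS-7 went with other levels of these genes on either side. Between CL KO and CL WT 0 of the 7 genes was called by the trimmed-mean test, 0 had an unadjusted p under 0.05, and limma on the drawn-in values called 0. Differences ran from -0.18 in Calb2 to 0.18 in Pvalb, and the groups overlapped in all 7, where 13.5% of all 14323 genes did not overlap (6.77% lower in KO). Over all genes the trimmed-mean test called 0.0279%, 0.0140% in each direction, and 5.73% had an unadjusted p under 0.05. Gad1 differed by 0.06 (95% interval -0.13 to 0.24), Gad2 by -0.01 (95% interval -0.18 to 0.16) and Slc32a1 by -0.08 (95% interval -0.29 to 0.12). For Pvalb the interval was -0.07 to 0.43 and for Calb1 -0.08 to 0.25.

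In PI the trimmed-mean test again called 0 of 7 between genotypes, where 0.0208% of 14452 genes were called, 0.00692% higher and 0.0138% lower in KO. Of the 7, Calb1 alone had an unadjusted p under 0.05, as did 5.75% of all genes. Calb1 ran from 6.47 through 6.50 to 6.56 log2 CPM in PI WT and from 6.74 through 6.76 to 6.78 in PI KO. The groups did not overlap, as was so for 14.1% of all genes, 7.19% with KO the lower. The KO level was higher by 0.25 (SE 0.06, 95% interval 0.13 to 0.37, unadjusted p = 0.00078, adjusted p = 0.768), with rank 12 by p, so it failed the correction over all genes. Limma on the drawn-in values called 1 of the 7 genes here, Calb1, beside 2388 of all genes. In simulated data without any difference, such a fit called 1873 to 2223 of 14489 genes. The other 6 genes differed by -0.22 in Calb2 to 0.11 in Pvalb, with unadjusted p from 0.23 in Gad1 to 0.991 in Slc32a1.

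Whether the difference between sides depended on the genotype was tested as an interaction, the change in KO minus that in WT. By the trimmed-mean test 0 of the 7 genes was called and 0 had an unadjusted p under 0.05. Of all 14211 genes 0% were called and 4.55% had such a p. Limma on the drawn-in values called 1 of the 7, Calb1, beside 1940 of the 14211 genes, so this count is not set apart from the background. The smaller fall of Calb1 in KO amounted to 0.17 (SE 0.10, 95% interval -0.03 to 0.37, adjusted p = 0.992). For Gad2, called in KO and not in WT, the 2 changes differed by 0.10 (SE 0.12, 95% interval -0.16 to 0.36, adjusted p = 0.992), so a difference between genotypes was not shown. Gad1 differed by -0.15 (95% interval -0.41 to 0.10) and Pvalb by -0.07 (95% interval -0.47 to 0.32).

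Since ciRS-7 binds miR-7, the longest annotated 3′ untranslated region of each gene (GENCODE M21) was searched for the 7-base matches to the miR-7 seed, bases 2 to 8 of the microRNA. The mature forms from RefSeq on GRCm38.p6 share this seed, shown in capitals.
mmu-miR-7a-5p: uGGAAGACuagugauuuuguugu
mmu-miR-7b-5p: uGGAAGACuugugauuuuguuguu
The letters searched on the transcript strand were GTCTTCC and TCTTCCA, which share TCTTCC. Of 12197 genes with such a region, 27.7% held 1 of them. Among the 7 genes 1 did, Lhx6, with a GTCTTCC match 1285 bases into a region of 2102 bases, in capitals here within 30 bases.
Lhx6: tgttagccaaaGTCTTCCtccttgttttga
Lhx6 differed between KO and WT by -0.05 in CL (95% interval -0.35 to 0.25) and by -0.06 in PI (95% interval -0.42 to 0.30). Calb1, with 3301 bases of 3′ untranslated region, and Gad2, with 3528, held 0 matches of this length. The match says nothing of whether miR-7 acts there, and no match says only that these letters are absent from these regions.

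How the 7 genes varied together among animals was measured as the correlation of deviations from the group mean, over the 12 animals of a side, for 42 combinations of pair and side. Pearson's r ran from -0.914 to 0.661, and 0 of 42 passed after Benjamini-Hochberg adjustment by a two-sided permutation test (3 had an unadjusted p under 0.05). With Spearman's rho 0 passed as well. The lowest r was that of Gad2 and Slc32a1 in CL, which did not pass adjustment (r = -0.914, permutation p = 0.00189, adjusted p = 0.0794; rho = -0.754, permutation p = 0.0201, adjusted p = 0.537). The value was -0.819 without the 2 animals farthest from the median, and -0.914 within WT and within KO. CL WT replicates 1 and 4 and CL KO replicates 1 and 6 were each tied low in Gad2 and tied high in Slc32a1, so replaced values enter this r. In PI the same pair had r = -0.075 (permutation p = 0.66, adjusted p = 0.903; rho = -0.0656, permutation p = 0.795, adjusted p = 0.935) and -0.166 without the 2 farthest animals. Gad1 and Pvalb had r = 0.648 in CL (permutation p = 0.039, adjusted p = 0.546; rho = 0.663, permutation p = 0.0256, adjusted p = 0.537) and r = 0.661 in PI (permutation p = 0.0358, adjusted p = 0.546; rho = 0.578, permutation p = 0.0672, adjusted p = 0.749). Without the 2 farthest animals these were 0.496 and 0.844. Gad1 and Gad2, the 2 decarboxylase genes, had r = -0.292 in CL (permutation p = 0.345, adjusted p = 0.903; rho = -0.289, permutation p = 0.371, adjusted p = 0.926) and 0.205 in PI (permutation p = 0.542, adjusted p = 0.903; rho = 0.147, permutation p = 0.641, adjusted p = 0.926). Both changed sign without the 2 farthest animals, to 0.128 and -0.00737, so no relation between them can be read. All these values rest on drawn-in libraries, which share depth and tissue makeup across genes.

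Other genes of GABA signalling and of interneurons were followed in lists. Of 7 listed genes for GABA uptake and breakdown, 2 were lower in PI in WT, 2 in KO and 0 higher in either, with a median of -0.16 in both genotypes. Abat, which breaks GABA down in mitochondria, fell by 0.23 on the log2 scale in WT (SE 0.06, adjusted p = 0.0239). In KO, Slc6a11, a GABA transporter of astrocytes, fell by 0.27 (SE 0.07, adjusted p = 0.0353).

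Among 15 listed regulators of interneuron lineages, 0 were called in WT and 0 in KO, while 1 and 3 had an unadjusted p under 0.05. Medians were 0.03 and -0.01, beside medians over all genes of 0.01 and -0.00068. The smallest p belonged to Npas3 (0.38, adjusted p = 0.131) and Adarb2 (-0.22, adjusted p = 0.226) in WT, and to Satb1 (-0.20, adjusted p = 0.0655) and Maf (-0.25, adjusted p = 0.0979) in KO.

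Of 13 listed interneuron subtype markers, 2 were lower and 0 higher in PI in WT, and 1 was lower and 1 higher in KO, with medians of -0.01 and -0.13. Lamp5, which marks neurogliaform interneurons but is also made by upper-layer excitatory neurons, as Calb1 is, fell by 1.21 in WT (SE 0.08, adjusted p = 3.26e-06) and by 1.03 in KO (SE 0.08, adjusted p = 8.43e-06). Vip, the peptide of a class of interneurons that inhibit other interneurons, fell by 0.47 in WT (SE 0.14, adjusted p = 0.0475). Npy, a peptide released by several classes, was higher in KO by 0.33 (SE 0.07, adjusted p = 0.0139).

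In the list of 14 genes enriched in fast-spiking cells and their perineuronal nets, to which Pvalb belongs by cell class, 4 were lower in PI in WT and 5 in KO, 0 were higher, and the medians were -0.21 and -0.19. Scn1a, a sodium channel subunit, fell by 0.54 in WT (SE 0.09, adjusted p = 0.00241) and 0.36 in KO (SE 0.06, adjusted p = 0.00439). Erbb4, the neuregulin receptor of interneurons, fell by 0.37 (SE 0.08, adjusted p = 0.00733) and 0.25 (SE 0.06, adjusted p = 0.0175). Syt2, a calcium sensor of their terminals, was called in WT (-0.42, SE 0.10, adjusted p = 0.0143), and Cplx1, a complexin found in many neurons, in both genotypes (-0.25, SE 0.07, adjusted p = 0.0384, and -0.22, SE 0.06, adjusted p = 0.043). In KO the potassium channel gene Kcnc1 (-0.31, SE 0.08, adjusted p = 0.037) and Tnr, a protein of the nets (-0.26, SE 0.07, adjusted p = 0.0277), were called too. The 14 shared neuronal markers had medians of -0.18 in both genotypes, close to those of this list, with 4 called lower and 1 higher in WT and 4 lower and 0 higher in KO. The neurofilament gene Nefl (-0.41, adjusted p = 0.00291, and -0.31, adjusted p = 0.00427), and the synaptic genes Snap25 (-0.30, adjusted p = 0.0167, and -0.31, adjusted p = 0.0112) and Syt1 (-0.25, adjusted p = 0.0391, and -0.27, adjusted p = 0.0289), were lower in both. In WT Thy1 was lower (-0.22, adjusted p = 0.0494) and Uchl1 higher (0.26, adjusted p = 0.0378), and in KO Syp was lower (-0.24, adjusted p = 0.0161).

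**Figure D4:**
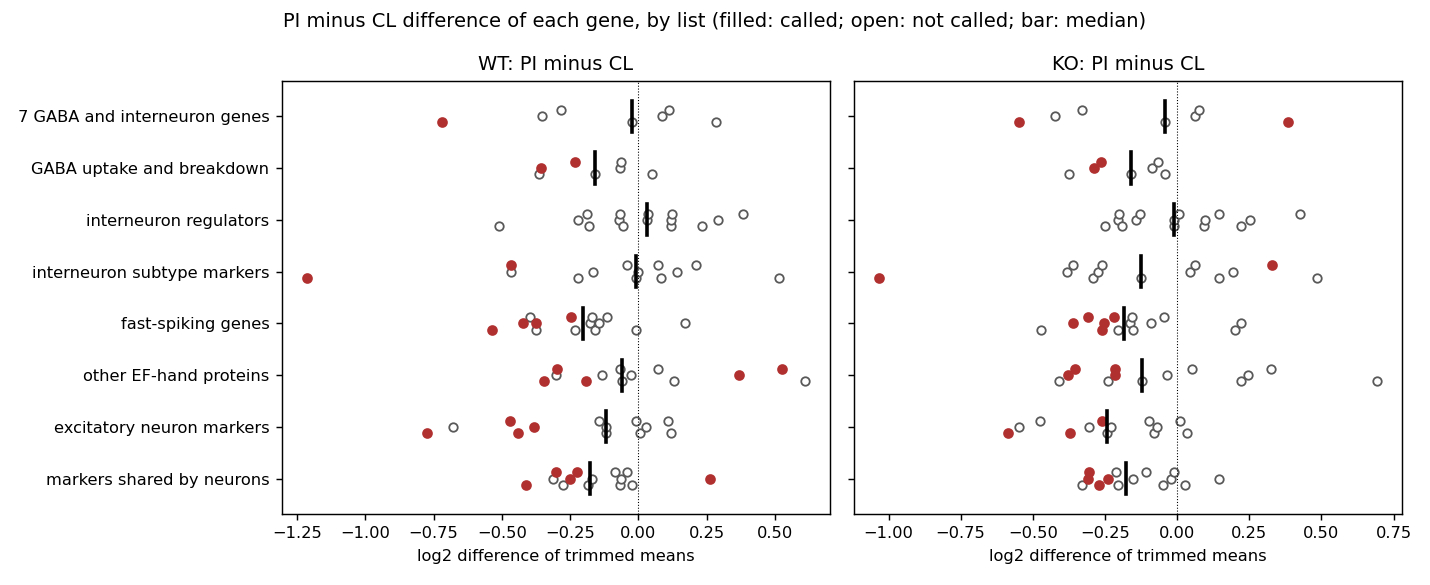
PI minus CL log2 difference of each gene (x axis) by list (y axis) in WT and in KO, with called genes filled, others open and the list's median as a bar. The medians of the 7 GABA and interneuron genes lie at -0.02 and -0.04, and those of the shared neuronal markers at -0.18 in both genotypes.

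Striatal projection neurons also make GABA and express both decarboxylase genes, so their markers were measured beside Gad2. Of 13 such markers 8 were listed, and Drd2, Adora2a, Gpr6, Isl1 and Six3 were not among the listed genes. The summed level of the 8 was 221 to 257 CPM in PI WT against 261 to 337 in CL WT, and 224 to 246 in PI KO against 253 to 281 in CL KO. Of the 8, 1 was called higher and 2 lower in PI in WT (median -0.04), and 0 higher and 1 lower in KO (median 0.12), of which 1 lower gene in each genotype is not reported by name. In WT Ppp1r1b, a regulator of dopamine signalling, was higher by 0.63 (SE 0.15, adjusted p = 0.0159), while Pde10a fell by 0.50 (SE 0.14, adjusted p = 0.0355). The share of striatal RNA in the samples was not tested.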

How the data were processed

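RNA from mouse cortex was sequenced after removal of ribosomal RNA with RiboCop and preparation with the CORALL total RNA kit, per the labels' protocols. The deposited values are log2 CPM, per the file headers, in 4 tables of 2 groups each. The same library has other values in each of its tables, so each table was scaled on its own, and tests stay within a table (the interaction joins 2). The build is mm10, per the submitters' processing notes, which is GRCm38 in the annotation used (GENCODE M21). The aligner, counter, gene filter, scaling and use of strand are not given in the sources used here. Every column matched 1 sample (0 unused). The deposited log2 values had been drawn in to group quartiles, a step found in the values and in no label, so a count test was not run.

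Depth was the step that made low CPM values whole within 0.03 read, which held for 75.6% to 91.3% of them per library. For the same library it differed between tables, as in PI WT replicate 1 with 9.89 and 9.68 M, so it is a scaled total. Intervals from it would cover counting error only.

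From the ties, 4 inner values per gene and group were solved. Their mean was tested with the Winsorized sum of squares as error (6 degrees of freedom for 2 groups, 12 for 4) and empirical Bayes moderation with a variance trend (limma 3.58.1, R 4.3.3), two-sided, with Benjamini-Hochberg adjustment over all genes of a table. The SE of a difference is the moderated one. The procedure was tested on simulated data with the spread of PI WT against CL WT. Without any difference it called 0 genes in each of 5 runs, where limma on drawn-in values called 1873 to 2223 of 14489. With 200 genes changed, the trimmed-mean test called 58.2% of those with a log2 difference of 0.5 and 90.4% of those with 1. Smaller differences were not simulated. Correlations used 100000 permutations within genotype.

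The titles tie 1 CL and 1 PI library to each animal. Over genes, deviations of the same animal's libraries had a median r of 0.113 in WT and 0.124 in KO, against -0.0308 and -0.0136 for different animals. The trimmed means cannot keep the pairs, because tied libraries cannot be told apart, so the block was fitted on the drawn-in values.

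Members, lists and tests were chosen with earlier results of these data known. The 7 members are named throughout. For PI against CL, the called genes of each list are named, up to 4 per direction by p, or the 2 with the smallest p where none was called (Cplx1 in KO is added beside its WT value). Some called list genes are counted but not reported here by name. Between genotypes no list gene was called and none is named. Also named are, for 4 members, the 3 genes of most like pattern. Lists of excitatory neurons, astrocytes, microglia, oligodendrocytes, endothelium, blood cells and choroid plexus are given in the closing section. Alternatives were limma on deposited values with and without the block, no variance trend, centring on the median gene, a low-value filter, a pseudocount of 0.5 CPM and a neuronal reference. Start regions matched for 5 of the 7 genes in the RefSeq table.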

Additional observations from a re-analysis of the deposited data

How the results depend on the processing

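Of 287 values of the 7 genes under other settings, 255 kept their direction and side of the threshold, 25 kept direction and passed anew, 1 lost its call and 6 changed sign. Most new calls came from limma on the drawn-in values, which understates the spread. In simulated data of 2 groups without any difference, that fit called 1873 to 2223 of 14489 genes. In the deposited data it called 4 of the 7 genes in PI WT against CL WT (6459 of all genes), 4 in PI KO against CL KO (6666), 1 in PI KO against PI WT (2388), 0 in CL KO against CL WT (2311 of all genes) and 1 in the interaction (1940). With the replicate block these were 4 (6614), 3 (6759), 1 (1800), 0 (1868) and 1 (2216). Between genotypes the block joins animals that share only a number. Same-numbered libraries there had a median r of 0.0208 in PI and 0.0417 in CL, and 1 of 6 and 2 of 6 correlated best with their own number.

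Alternatives chosen after seeing the data left out the libraries most often at tied ends, in limma on drawn-in values. Without CL KO replicate 6 the counts were 4 of 7 (6311 genes) in PI KO against CL KO, 0 (1779) in CL KO against CL WT and 1 (1533) in the interaction. Without PI WT replicate 4 they were 4 (6071) in PI WT against CL WT, 1 (1632) in PI KO against PI WT and 1 (1397) in the interaction. With no variance trend 1 of 7 was called in KO between sides, and 739 genes in all, against 1015 in WT. Centring on the median gene gave 2 of 7 (1689 genes) in WT and 3 of 7 (1606 genes) in KO. The share of calls higher in PI went from 49.1% to 37.7% in WT and from 50.8% to 36.7% in KO. Relative to the neuronal markers 3 of 7 (4089 genes) were called in WT, and 2 of 7 (3701 genes) in KO. The cause of these shifts was not tested.

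Signs changed in values near 0. Relative to the neuronal markers these were Slc32a1 in WT between sides (0.15), Gad1 in KO between sides (0.14) and Slc32a1 in PI between genotypes (-0.0083). Without CL KO replicate 6 they were Gad2 in CL between genotypes (0.0176) and Lhx6 in the interaction (0.0108), the latter also without PI WT replicate 4 (0.037). The correlation of Gad1 with Gad2 changed sign without the 2 farthest animals, to 0.128 in CL and -0.00737 in PI. Reads limit Calb2 and Lhx6 most. Because the 2 lowest and 2 highest values of a gene are tied, how far its most extreme library lay from the others cannot be read, although a library can be seen to lie at the ends in many genes.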

Other observations

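Markers of other cells moved with side as well, and their part in the differences of the 7 genes was not tested. Of 9 microglia markers 5 were higher in PI and 1 lower in each genotype, with medians of 0.69 in WT and 0.63 in KO, and summed levels of 205 to 230 CPM in PI WT against 179 to 191 in CL WT. Itgam, a myeloid integrin, was higher by 1.08 in WT (adjusted p = 0.000108) and 0.95 in KO (adjusted p = 0.00212). The complement genes C1qb (0.87, adjusted p = 0.00015, and 1.01, adjusted p = 0.000201) and C1qa (0.69, adjusted p = 0.00119, and 0.79, adjusted p = 0.00278) and the receptor gene Cx3cr1 (0.71, adjusted p = 0.0387, and 0.64, adjusted p = 0.0194) were higher too. Aif1 was called in WT (0.95, adjusted p = 0.0321). P2ry12, a receptor of resting microglia, fell by 0.82 in WT (adjusted p = 0.0139) and 0.75 in KO (adjusted p = 0.00303). Of 8 astrocyte markers 2 were higher and 2 lower in WT, and 2 higher and 1 lower in KO. Gfap, the filament of reactive astrocytes, rose by 1.88 (SE 0.11, adjusted p = 1.87e-06) and 2.19 (SE 0.16, adjusted p = 8.47e-06). Aqp4, a water channel, was higher by 0.27 (adjusted p = 0.0125) and 0.41 (adjusted p = 0.014), the gap junction gene Gja1 was lower (-0.35, adjusted p = 0.0126, and -0.43, adjusted p = 0.00185), and the glutamate transporter gene Slc1a2 was lower in WT (-0.23, adjusted p = 0.0211). Of 9 oligodendrocyte markers 1 was called lower in WT and 0 in KO, 0 were higher in either, and 5 had an unadjusted p under 0.05 in WT and 1 in KO. Their medians were -0.35 and -0.13, and their sums were 1470 to 2080 CPM in PI WT against 2130 to 2320 in CL WT, without overlap, and 1630 to 1850 in PI KO against 1700 to 2300 in CL KO, with overlap. Of 7 endothelial markers 0 were called in WT, and 1 was lower and 0 higher in KO, with 3 at an unadjusted p under 0.05 in each genotype. The difference was positive in 6 of 7 in each, with medians of 0.40 and 0.09, and the sums overlapped, at 81.3 to 124 CPM in PI WT against 83.7 to 122 in CL WT and 93.4 to 102 in PI KO against 93.8 to 111 in CL KO. The called genes were Cnp in WT (-0.41, adjusted p = 0.0167) and Slco1a4 in KO (-0.48, adjusted p = 0.00234). Where none was called, the smallest p belonged to Mag (0.43, adjusted p = 0.139) and Olig1 (-0.26, adjusted p = 0.231) in KO, and to Cdh5 (0.79, adjusted p = 0.0542) and Slco1a4 (-0.48, adjusted p = 0.0937) in WT. In the tables of PI and CL, 1 of 8 markers of neutrophils and monocytes (Csf3r) and 1 of 6 of choroid plexus (Kl) were listed, at 1.33 to 1.61 CPM and 2.32 to 3.26 CPM in PI WT.

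Among 13 listed EF-hand proteins other than the 3 described, 2 were higher and 3 lower in PI in WT, and 0 higher and 4 lower in KO. Hpcal4, a neuronal calcium sensor, rose by 0.52 in WT (SE 0.07, adjusted p = 0.000647) and Ncs1, another sensor, by 0.37 (SE 0.07, adjusted p = 0.00423). Vsnl1 fell by 0.34 in WT (SE 0.06, adjusted p = 0.00188) and 0.35 in KO (SE 0.09, adjusted p = 0.0214). The calmodulin gene Calm2 fell by 0.30 in WT (SE 0.06, adjusted p = 0.00418) and 0.22 in KO (SE 0.05, adjusted p = 0.0246), and Calm3 by 0.19 (SE 0.05, adjusted p = 0.0248) and 0.21 (SE 0.06, adjusted p = 0.0336). Cabp1 fell in KO by 0.38 (SE 0.11, adjusted p = 0.0448).

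Over 24 libraries, the genes whose deviations from the group mean were most like those of a member were ranked among 9908 genes with a mean of at least 3 log2 CPM. For Gad1 they were Atp2a2 (r = 0.852), Alg2 (0.828) and Ank (0.826). For Gad2 they were Relch (0.916), Pdcd10 (0.879) and Shoc2 (0.87). For Slc32a1 they were Septin9 (0.897), Ubl7 (0.872) and Hpca (0.859), and for Pvalb Fam168a (0.771), Ndufaf3 (0.763) and Prickle1 (0.755). Within the 7 genes the highest r on this scale was 0.63, between Gad1 and Pvalb. The highest of so many values is large by selection, and libraries share depth, tissue makeup and the drawing in of values.

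Of 13 markers of excitatory cortical neurons 4 were lower in PI in WT and 3 in KO, and 0 were higher, with medians of -0.12 and -0.24. Camk2a (-0.44, adjusted p = 0.000783, and -0.59, adjusted p = 8.33e-05) and Nrgn (-0.38, adjusted p = 0.0117, and -0.37, adjusted p = 0.00144) were lower in both genotypes, Rorb (-0.78, adjusted p = 0.00186) and Neurod1 (-0.47, adjusted p = 0.0352) in WT, and Tbr1 (-0.26, adjusted p = 0.0272) in KO.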
